A study of Oryza sativa Indica Group and Oryza sativa Japonica Group with 20 samples.

Results

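The starts of chromosomes 11 and 12 of rice carry a recent segmental duplication, and the peaks of 2 histone marks called in male meiocytes were compared between them. Members were all H3K4me3 and H3K27me3 peaks starting in the first 3 Mb of either chromosome in 8 peak lists. They numbered 3950 of the 187267 peaks called on the 12 chromosomes, 2048 on chromosome 11 and 1902 on chromosome 12. Membership rested on position alone, but the members were chosen with earlier results of these data known. The same 3 Mb of chromosomes 1 to 10 held 16755 peaks and served for comparison. Meiocytes at prophase of the first meiotic division were drawn by micromanipulation from anthers of 2 wild-type cultivars, IR64 (labelled Indica Group) and Azucena (labelled Japonica Group). CUT&Tag was run with 2 libraries per mark and cultivar. In this assay an antibody brings a transposase to the marked chromatin, which is cut and tagged there. Separate plants are not stated for the replicates by any label. The p-values therefore refer to these libraries and not to plants, and differences between libraries may be technical.

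H3K4me3 is deposited around the starts of transcribed genes, whereas H3K27me3 is laid down by Polycomb repressive complex 2 over silent genes. In rice the ends of the short arms of chromosomes 11 and 12 hold many paralogous genes in the same order, and exchange of sequence between them (gene conversion) is known to have kept some of those copies alike. Genes were not analysed here, since no annotation of the coordinates in the lists was at hand, and the duplication was therefore read only through the peaks. IR64 and Azucena lists used separate coordinates, which were not converted, and the build was not given in the sources used here.

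Uniquely aligned reads ranged from 9 M to 13.71 M (M, mega) in 7 libraries, and IR64 H3K27me3 replicate 1 held 47.91 M. These were 51.75% to 58.71% of clean reads, while 93.74% to 97.69% of clean reads aligned. Reads that fit both copies of a duplicated stretch cannot be placed uniquely, and whether such reads entered the peak calling was not given in the sources used here. Their part in the values below was not tested. In the other replicate, 86.7% to 93.6% of the H3K4me3 members and 63.0% to 87.7% of the H3K27me3 members were found again by an overlap of at least 1 bp. Over all peaks on the 12 chromosomes, these shares were 87.3% to 91.9% for H3K4me3 and 66.1% to 87.5% for H3K27me3. The lowest share of members belonged to IR64 H3K27me3 replicate 1 on chromosome 11. There IR64 had 63.0% and 75% in replicates 1 and 2, against 66.1% and 83.7% over all H3K27me3 peaks of these libraries. On chromosome 12 IR64 had 72.7% and 80.5% for H3K27me3.

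Both starts were dense in H3K4me3 against the rest of their own chromosomes, more so than any other chromosome start. Density in the first 3 Mb was divided by density in the remainder of the chromosome, up to the last called base. On chromosome 11 this ratio was 2.02 and 2.00 in IR64 replicates 1 and 2, and 2.06 and 1.96 in Azucena. On chromosome 12 it was 1.82 and 1.88 in IR64, and 1.85 and 1.88 in Azucena. Every one of these values lay above the highest of chromosomes 1 to 10, which was 1.43 and 1.45 in the IR64 libraries and 1.42 and 1.44 in those of Azucena. Chromosomes 11 and 12 thus ranked first and second of 12 in all 4 libraries. In peaks per Mb, chromosome 11 had 130.5 ± 3.54 in its start and 65 ± 1.25 in the rest in IR64, and 114.3 ± 0 and 56.9 ± 1.90 in Azucena (SD, n = 2 each). Chromosome 12 had 125 ± 0.471 and 67.6 ± 1.15 in IR64, and 111.0 ± 2.36 and 59.5 ± 0.433 in Azucena (SD, n = 2 each). The rest of these chromosomes was the sparsest of the 12, the next being that of chromosome 10, with 77.0 in IR64 and 69.6 in Azucena. The high ratios therefore reflect a sparse remainder as well as the starts themselves.

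Against the median of the other 10 starts, the mean ratio of the pair was 1.56 times as high (0.64 ± 0.0878 on the log2 scale, SD, n = 4 libraries, 4 of 4 above). The two-sided exact permutation test over libraries, which flips signs, gave p = 0.125, the smallest that 4 libraries allow (0.229 adjusted over 11 comparisons). That value is reached whenever all 4 libraries share a direction, whatever the size or the spread of the difference. No comparison in this family could pass 0.05. This comparison was chosen after the values were seen. In absolute number the 2 starts were not the richest, since chromosome 11 ranked 3 of 12 in both cultivars and chromosome 12 ranked 5 in IR64 and 4 in Azucena. When only peaks enriched 4-fold or more were kept, the ratios were lower, 1.28 and 1.61 for chromosomes 11 and 12 in IR64 and 1.26 and 1.53 in Azucena. They still exceeded all other starts, the highest of which stood at 1.19 and 1.11.

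**Figure D1:**
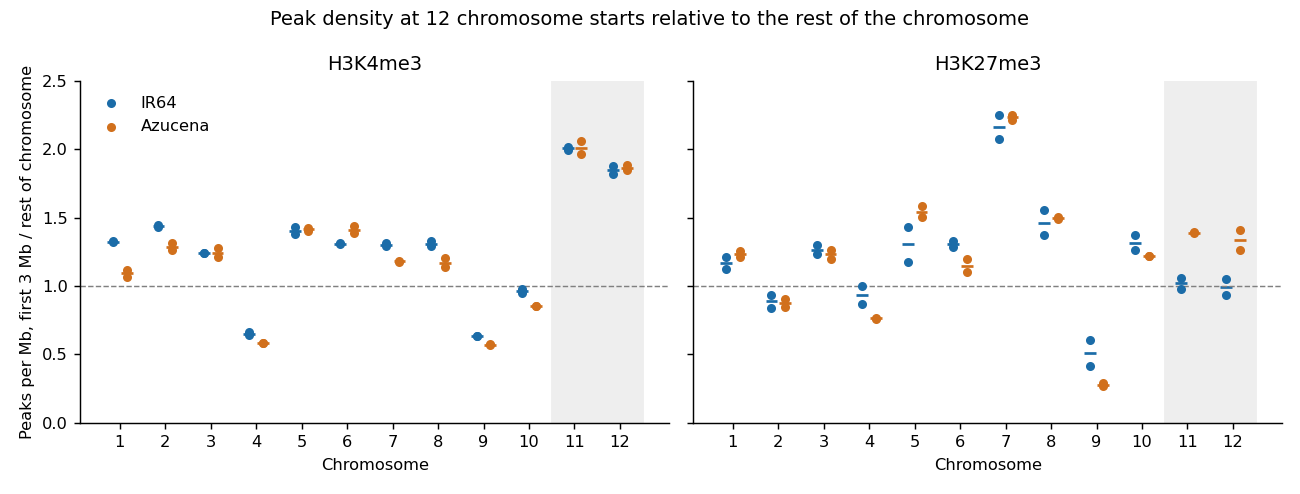
Ratio of peaks per Mb in the first 3 Mb to peaks per Mb in the rest of each chromosome (y axis) for 12 chromosomes (x axis), with 1 dot per library, bars at the mean of 2 replicates, and chromosomes 11 and 12 shaded. For H3K4me3 the 8 values of the shaded pair lie between 1.82 and 2.06 and all others lie at or below 1.45, whereas for H3K27me3 chromosome 7 is highest.

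H3K27me3 did not follow this pattern. Its ratio on chromosome 11 was 0.98 and 1.06 in IR64 and 1.4 and 1.39 in Azucena. On chromosome 12 it was 0.931 and 1.05 in IR64 and 1.41 and 1.26 in Azucena. The IR64 values lay on both sides of 1, and the Azucena values all lay above it. For H3K27me3 the highest start was that of chromosome 7, at 2.08 to 2.25 over the 4 libraries. Pooled over cultivars the pair did not stand apart from the other starts (ratio 0.95, exact permutation p = 0.625, 0.733 adjusted).

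The first question on the pair itself was whether the 2 starts held equal numbers of peaks. For H3K4me3 they nearly did. Chromosome 11 had 399 and 384 peaks in IR64 replicates 1 and 2, and chromosome 12 had 374 and 376. In Azucena chromosome 11 had 343 in each replicate and chromosome 12 had 328 and 338. Chromosome 11 was higher in 4 of 4 libraries by a small margin, a ratio of 1.04 (0.05 ± 0.0331 on the log2 scale, SD, n = 4, exact permutation p = 0.125, 0.229 adjusted). Of the 66 pairs of chromosome starts, 81.8% likewise differed in 1 direction in all 4 libraries, so a shared direction was common. The size of the difference was among the smallest, since 58 of the other 65 pairs differed more (median size 0.36, range 0.01 to 1.4 on the log2 scale).

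The direction differed for strong peaks and along the start. Of peaks enriched 4-fold or more, chromosome 12 had more in each library, 123 against 115 and 93 against 78 in IR64, and 114 against 101 and 118 against 96 in Azucena (log2 of chromosome 11 over 12 -0.21, exact permutation p = 0.125). For such peaks 45.5% of pairs of starts differed in 1 direction throughout. In the first Mb chromosome 11 had 137 and 132 H3K4me3 peaks in IR64 against 121 and 128 on chromosome 12, and 116 and 115 against 110 and 114 in Azucena. In the second Mb the order turned, with 117 in each IR64 replicate against 133 and 130, and 103 and 104 against 119 in each Azucena replicate. In the third Mb chromosome 11 led again, with 145 and 135 against 120 and 118, and 124 in each Azucena replicate against 99 and 105. Each of these orders held in 4 of 4 libraries, and 80.3%, 83.3% and 80.3% of all pairs of starts had 1 direction throughout in the first, the second and the third Mb. Within the first 2 Mb alone the ratio fell below 1 (-0.05 on the log2 scale, exact permutation p = 0.25).

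H3K27me3 peaks were more numerous on chromosome 11. IR64 had 119 and 96 on chromosome 11 and 88 and 77 on chromosome 12. Azucena had 182 in each replicate on chromosome 11 and 166 and 155 on chromosome 12. The ratio was 1.21 (0.28 ± 0.129 on the log2 scale, SD, n = 4, higher in 4 of 4 libraries, exact permutation p = 0.125, 0.229 adjusted), and 74.2% of pairs of starts differed in 1 direction throughout. The size was in the middle of the range, with 38 of the other 65 pairs differing more (median 0.42). The excess was largest in the third Mb, with 49 and 36 against 33 and 26 in IR64 and 84 and 79 against 70 and 60 in Azucena. That order held in 4 of 4 libraries, as it did in the second Mb (37 and 33 against 32 and 31 in IR64, 49 and 50 against 45 and 49 in Azucena). In the first Mb Azucena replicate 1 went the other way, with 49 against 51. For H3K27me3, 60.6%, 77.3% and 59.1% of pairs of starts had 1 direction throughout in the first, the second and the third Mb. Peaks enriched 4-fold or more had no common direction, with 55 and 54 against 49 and 47 in IR64 and 54 and 69 against 58 in each Azucena replicate (48.5% of pairs of starts had one).

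Counted per library, the chromosome 11 to 12 ratio of H3K27me3 was larger in IR64 (log2 0.44 and 0.32) than in Azucena (0.13 and 0.23). The 0.44 came from IR64 replicate 1, the library with 47.91 M uniquely aligned reads. How many other pairs of starts set the cultivars apart in this way was not counted. The difference between the cultivars was 0.19 on the log2 scale with an exact permutation p of 0.333, the smallest that 2 against 2 libraries allow. It was 0.14 without IR64 replicate 1, and 0.065 when a −log10 q of 5 or more was asked (exact permutation p = 0.667). For peaks enriched 4-fold or more it was 0.11 (exact permutation p = 1), and there the cultivars overlapped, with 0.17 and 0.20 in IR64 and -0.10 and 0.25 in Azucena. Merged H3K27me3 regions with a peak of each replicate numbered 71 on chromosome 11 and 62 on chromosome 12 in IR64. In Azucena they numbered 156 and 132, so with such regions the ratio was not larger in IR64. For H3K4me3 the ratios of the cultivars overlapped (difference 0.02, exact permutation p = 0.667). Set against H3K4me3, chromosome 11 had 27.5 H3K27me3 peaks per 100 H3K4me3 peaks in IR64 and 53.1 in Azucena, and chromosome 12 had 22.0 and 48.2. From the highest, they ranked 8 and 11 of 12 in IR64 and 7 and 9 in Azucena.

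Along the 30 bins of 100 kb, the H3K4me3 profile of each start was stable between replicates (Spearman rho 0.84 to 0.89 over 30 bins). Bins held a median of 11 to 13 peaks on both starts. In IR64 the densest bins lay close to each other, from 2000 to 2100 kb on chromosome 11 (21 and 20 peaks) and from 1900 to 2000 kb on chromosome 12 (20 and 19). The sparsest bin of chromosome 11 lay at 1000 to 1100 kb (4 and 2 peaks). On chromosome 12 the bins at 0 to 100 kb and 2500 to 2600 kb were sparsest, with 5 and 6 peaks each. In Azucena the densest bins were 2500 to 2600 kb on chromosome 11 (18 and 17) and 1700 to 1800 kb on chromosome 12 (16 and 18). Azucena had a gap near 1000 kb on both starts. At 1000 to 1100 kb chromosome 11 had 2 peaks in each replicate and chromosome 12 had 3 and 4, its sparsest bin. Chromosome 11 had a second gap at 1200 to 1300 kb, with 0 and 2 peaks, where chromosome 12 had 15 and 12.

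**Figure D2:**
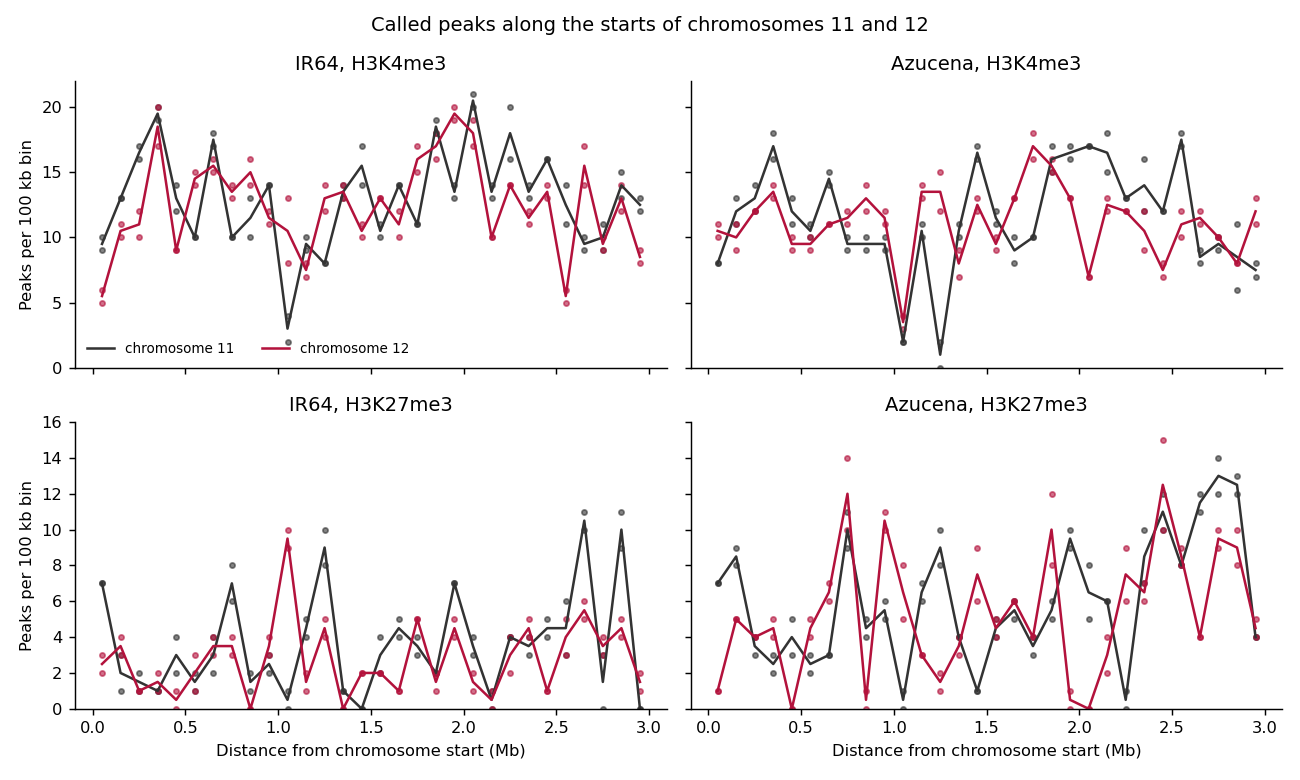
Called peaks per 100 kb bin (y axis) by distance from the chromosome start in Mb (x axis) for chromosomes 11 and 12, by mark (rows) and cultivar (columns), with lines at the mean of 2 replicates and 1 dot per replicate. The H3K4me3 lines of Azucena both drop near 1 Mb, to 2 peaks on chromosome 11 and to 3 and 4 on chromosome 12.

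H3K27me3 was clumped. Bins at 0 in both replicates were found at 1400 to 1500 kb and 2900 to 3000 kb on IR64 chromosome 11 and at 800 to 900 kb and 1300 to 1400 kb on IR64 chromosome 12. In Azucena they were found at 400 to 500 kb and 2000 to 2100 kb on chromosome 12. The largest difference in H3K27me3 between the 2 starts, 9 peaks in the mean of replicates, was reached by 1 bin in each cultivar. In Azucena it was the bin at 1900 to 2000 kb, with 10 and 9 peaks on chromosome 11 and 1 and 0 on chromosome 12. In IR64 it was the bin at 1000 to 1100 kb. This was the densest of chromosome 12, with 9 and 10 H3K27me3 peaks, and on chromosome 11 it held 0 and 1 H3K27me3 peaks and was the sparsest in H3K4me3. The densest bins were at 2600 to 2700 kb on IR64 chromosome 11 (11 and 10), and at 2700 to 2800 kb on chromosome 11 (14 and 12) and 2400 to 2500 kb on chromosome 12 (15 and 10) in Azucena.

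The bin profiles of the 2 starts were weakly alike, and more so than those of most other pairs. For H3K4me3 rho was 0.17 and 0.46 in IR64 replicates 1 and 2 and 0.10 and 0.12 in Azucena, a mean of 0.21 ± 0.166 (SD, n = 4 libraries, 30 bins each). The other 65 pairs had a median of 0.00 (range -0.40 to 0.29), and 7 of them were higher. In IR64 alone 3 other pairs were higher for H3K4me3, and in Azucena alone 21 were. The mean over libraries was 0.132 without IR64 replicate 2 and 0.052 for peaks enriched 4-fold or more. For H3K27me3 rho was 0.40 and 0.38 in IR64 and 0.19 and 0.03 in Azucena, a mean of 0.25 ± 0.175 (SD, n = 4), with 1 of the other 65 pairs higher (median -0.02, range -0.33 to 0.26). In IR64 alone the pair was the highest of 66 for H3K27me3 (0.39 against at most 0.26), and in Azucena alone 15 other pairs were higher. These values are descriptions. Bins of a chromosome are not independent, and all profiles of a library share its depth.

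Over the first 2 Mb alone, the mean H3K27me3 rho was 0.05. Letting 1 start slide against the other by up to 500 kb gave a best rho of 0.51 for Azucena H3K27me3 (with chromosome 12 bins set 200 kb nearer to the start, 28 bins), above all other pairs treated in the same way (highest 0.50, median 0.29). For IR64 H3K27me3 the best was 0.43 with no slide, with 10 other pairs higher. For H3K4me3 the best values were 0.42 in IR64 and 0.41 in Azucena, at slides of 400 kb and -300 kb that point in opposite directions, with 13 and 14 other pairs higher.

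Between the cultivars, bin profiles at equal distance from the start were alike on chromosome 11 and hardly alike on chromosome 12. At equal distance from the start, H3K4me3 bins of IR64 and Azucena had a mean rho of 0.68 on chromosome 11, the second highest of 12 starts, and 0.13 on chromosome 12, the lowest. For H3K27me3 the values were 0.58 and 0.28, ranking 3 and 8. The median of the other 10 starts was 0.44 for H3K4me3 and 0.35 for H3K27me3. An insertion or deletion shifts every bin beyond it, so this compares the 2 assemblies as well as the marks, and the 2 cannot be told apart in bins. Order and spacing do not need equal distance and are compared between the cultivars below. There the H3K4me3 peaks of chromosome 12 gave more matches with chromosome 12 than with chromosome 11.

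Order and spacing were then compared peak by peak, which does not depend on equal distance from the start. Median distances between neighbouring H3K4me3 summits were 5950 ± 116 bp on chromosome 11 and 6309 ± 14.8 bp on chromosome 12 in IR64, and 6477 ± 80.6 and 6875 ± 159 bp in Azucena (SD, n = 2 each). For H3K27me3 they were 13287 ± 104 and 16910 ± 990 bp in IR64 and 9062 ± 265 and 9586 ± 262 bp in Azucena (SD, n = 2 each). Spacing was thus closer on chromosome 11 in all 4 of these comparisons of means. In a window of fixed size this largely restates its higher peak numbers.

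A matching run was 4 successive peaks on each start whose 3 gaps agreed within 5% or 100 bp. H3K4me3 gave 6 runs between chromosomes 11 and 12 in each IR64 library, and 17 and 9 in Azucena replicates 1 and 2. The mean of 9.5 ± 5.20 (SD, n = 4) was the highest of the 66 pairs, tied with 1 other, and the other 65 had a median of 3.75. Denser starts offer more combinations, so runs were also divided by the number of peak pairs, on a common scale. The mean was then 0.776 ± 0.520 (SD, n = 4), the highest of the 66, against at most 0.688 in the others. In IR64 alone it was 0.409 and ranked 30. In Azucena alone it was 1.14 (1.51 and 0.776 in replicates 1 and 2), the highest, against at most 0.959. With the order of 1 start reversed the same pair gave 12 and 10 runs in IR64 and 10 and 8 in Azucena. The mean in reversed order was 10, against 9.5 in true order. In IR64 14 other pairs had more runs in true order, and in Azucena none (highest 9.5). Without Azucena replicate 1 the mean over libraries was 7. H3K27me3 gave 0 runs in all 4 libraries, and 30 of the other pairs had a mean above 0, up to 0.75.

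The same measure was applied between the cultivars. IR64 against Azucena gave a mean of 30.25 H3K4me3 runs on chromosome 11 (22 to 36 over 4 pairs of libraries) and 22.75 on chromosome 12 (19 to 27). Chromosome 11 of IR64 against chromosome 12 of Azucena gave 6 (3 to 9), and chromosome 12 of IR64 against chromosome 11 of Azucena 7.75 (6 to 10). Every pair of libraries gave more runs for the same chromosome than for the other one. Not all homologous starts did so well, since those of chromosomes 4, 9 and 10 gave means of 8.75, 1.5 and 7. For H3K27me3 even the homologous starts gave 0.25 on chromosome 11 and 0 on chromosome 12, so the 0 runs between the pair are uninformative.

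**Figure D3:**
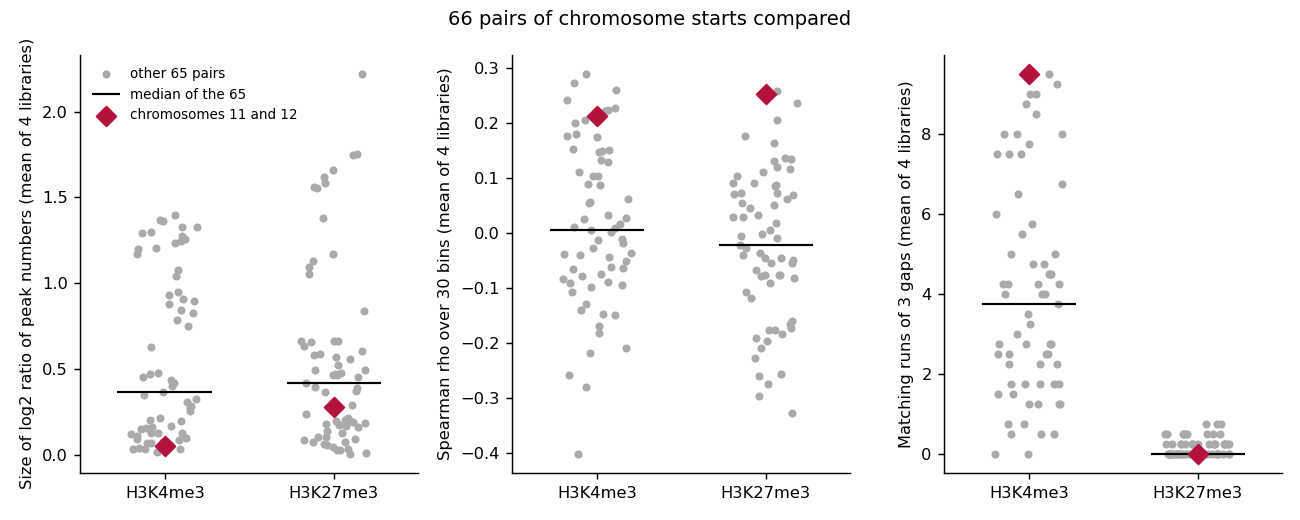
Size of the log2 ratio of peak numbers (left), Spearman rho over 30 bins of 100 kb (middle) and matching runs of 3 gaps (right), each a mean of 4 libraries, for 66 pairs of chromosome starts and both marks. The pair of chromosomes 11 and 12 (diamond) has one of the smaller differences in H3K4me3 number (0.05), a rho of 0.21 and 0.25 for the 2 marks, and 9.5 and 0 matching runs.

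Longer stretches were sought as chains, which let up to 3 regions be skipped on a side and asked that gaps agree within 3% or 300 bp. This search was added after the runs had been seen. It used reproducible regions, that is, merged peaks of both replicates with a peak of each. There were 344 H3K4me3 regions on chromosome 11 and 323 on chromosome 12 in IR64, and 300 on each in Azucena. In IR64 the longest chain between the 2 starts joined 10 regions, the median of the other 65 pairs, and 20 pairs had longer ones (up to 14). The reversed order gave 11. In Azucena the longest chain joined 13 regions, equal to the longest of the other pairs (2 equal, 0 longer, median 10), and the reversed order gave 12. Chains between the cultivars on 1 chromosome joined 64 regions on chromosome 11 and 28 on chromosome 12, and across the 2 chromosomes 12 each way.

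**Figure D4:**
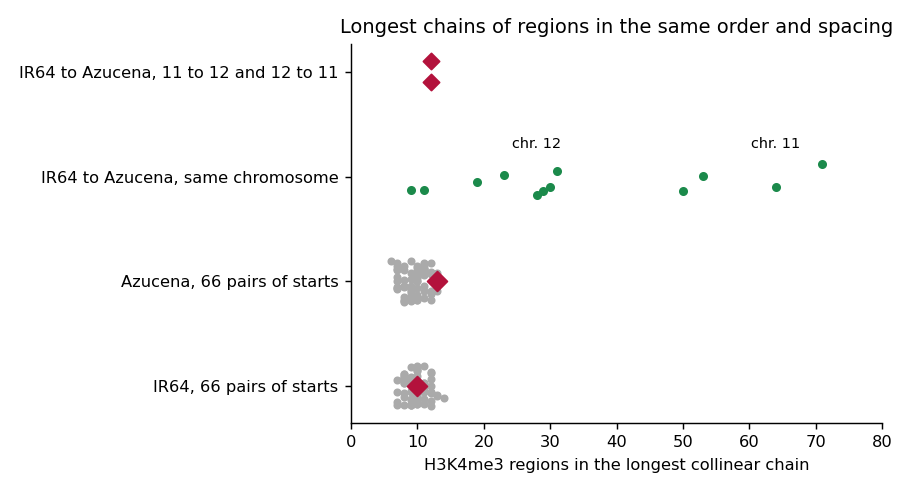
Number of H3K4me3 regions in the longest chain of the same order and spacing (x axis) for the 66 pairs of starts in each cultivar, for the 12 starts of IR64 against the same start in Azucena, and for chromosome 11 of one cultivar against chromosome 12 of the other. Diamonds mark chromosomes 11 and 12, at 10 and 13 within a cultivar and 12 across cultivars, and the same chromosome across cultivars reaches 64 for chromosome 11 and 28 for chromosome 12.

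The Azucena chain lay at nearly equal distance from both chromosome starts. It ran from a region centred at 706641 to one at 1003179 on chromosome 11 (298 kb from end to end) and from 665932 to 962053 on chromosome 12, with offsets of chromosome 12 from chromosome 11 between -42557 and -40709 bp. With chains held to positions no more than 100 kb apart, it was the longest of 66 pairs (13 against at most 11, median 8). This limit was chosen after the data were seen, and the offsets of this chain already lay within it. Chains of other pairs could only keep or lose length under it, so that rank adds nothing to the tie above. The reversed order was not computed for this limit. The IR64 chain set 136048 to 307078 on chromosome 11 against 1876859 to 2048700 on chromosome 12, 1740662 to 1741622 bp apart. Held to 100 kb the longest IR64 chain joined 9, with 10 pairs longer. With gaps within 2% or 200 bp, the longest Azucena chain lay elsewhere and joined 8, 13 pairs were longer and the reversed order gave 12. With up to 2 regions skipped it joined 8, from 815036 to 964153 on chromosome 11, inside the chain above, and 6 pairs were longer. With gaps within 5% or 300 bp the longest joined 17 but lay elsewhere, from 261821 to 579877 on chromosome 11, with 10 pairs longer and 19 in reversed order.

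The 13 Azucena partners were compared for values that the search had not used. Chromosome 11 regions were wider in 9 of 13 and of higher fold in 10 of 13. These regions come from 1 merged list and are not replicates, and such counts were not made for other partners of the 2 starts. Over all reproducible H3K4me3 regions of the Azucena starts, median width was 957.5 bp on chromosome 11 and 999 bp on chromosome 12. Over the 13 pairs, widths had a rho of 0.57 and folds a rho of -0.18, given as descriptions. In the IR64 chain, whose length was the median of other pairs, these were 0.62 and -0.55, and chromosome 11 was wider in 5 of 10 and of higher fold in 5 of 10. Of the chromosome 11 partners 5 overlapped a reproducible H3K27me3 region, and of the chromosome 12 partners 3, each of them the partner of a chromosome 11 region that did so too. Among all Azucena H3K4me3 regions the share was 18.8%, and on the starts of chromosomes 11 and 12 it was 19.3% and 14.0%. These 3 were the pairs at 714944 to 715795 and 674299 to 674829, at 719422 to 720017 and 678632 to 679088, and at 963965 to 964342 and 921941 to 922896 (chromosomes 11 and 12 in turn). The first 2 of them are neighbours in the chain, and no background was computed for overlap in both partners. In the IR64 chain, 1 of 10 chromosome 11 partners and 0 of 10 chromosome 12 partners overlapped H3K27me3. The longest unbroken matching run of reproducible H3K4me3 regions was 5 in IR64, at chromosome 11, 1400536 to 1424235, and chromosome 12, 156622 to 180170. Folds in it were 2.06 to 3.29 on chromosome 11 and 2.60 to 5.97 on chromosome 12. In Azucena it was 4 regions, at chromosome 11, 127991 to 157769, and chromosome 12, 30969 to 61833, where the fold was higher on chromosome 12 for each of the 4 (2.59 to 3.91 against 3.65 to 4.71). None of the regions in these runs overlapped H3K27me3, but with 12.6% of all regions doing so in IR64 and 18.8% in Azucena, so few regions say nothing of a difference.

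Widths of H3K4me3 peaks did not separate the starts. Median width was 759 and 773 bp on chromosome 11 and 855 and 752 bp on chromosome 12 in IR64. In Azucena it was 741 and 776 bp on chromosome 11 and 821.5 and 754 bp on chromosome 12. Replicate 1 was wider on chromosome 12 in both cultivars and replicate 2 on chromosome 11, so the direction differed between replicates (ratio 0.959, exact permutation p = 0.5, 0.688 adjusted). Of the 66 pairs of starts, 47.0% had 1 direction throughout for H3K4me3 width. H3K27me3 peaks were narrower on chromosome 11 in 4 of 4 libraries. Medians were 582 and 612 bp against 603 and 677 bp in IR64, and 742 and 727.5 bp against 795.5 and 832 bp in Azucena. The ratio was 0.918 (-0.12 ± 0.0610 on the log2 scale, SD, n = 4, exact permutation p = 0.125, 0.229 adjusted), and 31.8% of pairs of starts had 1 direction throughout. Among H3K27me3 peaks of fold at least 4 the direction turned in each library, with 662 and 740 bp on chromosome 11 against 642 and 735 bp in IR64, and 1114 and 1112 bp against 1020.5 and 1006.5 bp in Azucena. The share of H3K27me3 peaks wider than 2000 bp was 7.97% ± 0.389 on the Azucena chromosome 11 start and 4.07% ± 0.638 on chromosome 12, and 3.34% ± 1.16 and 3.08% ± 1.15 in IR64 (SD, n = 2 each).

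Fold enrichment of H3K4me3, the authors' value at the summit, was lower on chromosome 11 in 4 of 4 libraries. Medians were 3.33 and 3.25 against 3.51 and 3.30 in IR64, and 3.43 and 3.34 against 3.60 and 3.64 in Azucena. The ratio was 0.951 (-0.07 ± 0.0412 on the log2 scale, SD, n = 4, exact permutation p = 0.125, 0.229 adjusted), a direction shared by all 4 libraries in 74.2% of pairs of starts. Within each library's whole list, these medians stood at the percentiles 43.6 and 44.8 for chromosome 11 and 49.9 and 46.8 for chromosome 12 in IR64, and at 40.9 and 39.3 against 47.1 and 50.1 in Azucena. H3K27me3 fold showed no common direction (3.76 and 4.22 against 4.12 and 4.21 in IR64, 3.49 and 3.45 against 3.39 and 3.55 in Azucena, ratio 0.979, exact permutation p = 0.75), as opposed to 59.1% of pairs of starts that had one.

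**Figure D5:**
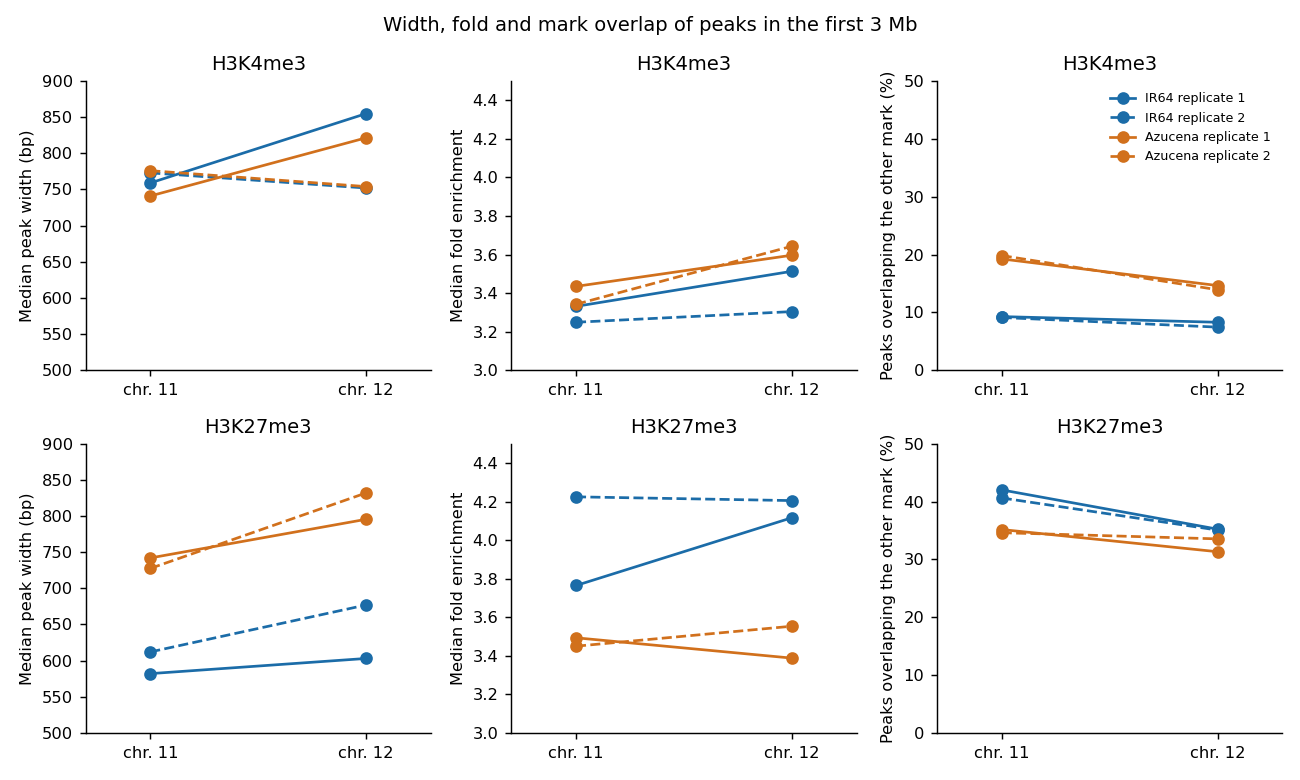
Median width in bp, median fold enrichment and percentage of peaks overlapping a reproducible region of the other mark (y axes) in the first 3 Mb of chromosomes 11 and 12 (x axis), with 1 line per library, for H3K4me3 (upper row) and H3K27me3 (lower row). The H3K4me3 fold rises from chromosome 11 to 12 in 4 of 4 libraries, and overlap falls in all 8; the axes of width and fold do not start at 0.

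The 2 marks met more often on chromosome 11. The share of H3K27me3 peaks that overlapped a reproducible H3K4me3 region by at least 1 bp was 42.0% and 40.6% on chromosome 11 and 35.2% and 35.1% on chromosome 12 in IR64. In Azucena it was 35.2% and 34.6% against 31.3% and 33.5%. The difference was 4.31 ± 2.48 percentage points (SD, n = 4, higher on chromosome 11 in 4 of 4, exact permutation p = 0.125, 0.229 adjusted), and 65.2% of pairs of starts had 1 direction throughout. Among H3K27me3 peaks enriched 4-fold or more, set against all H3K4me3 regions, the gap was wider, 47.3% and 48.1% against 36.7% and 40.4% in IR64 and 53.7% and 58.0% against 36.2% and 34.5% in Azucena. With the fold filter on both marks the difference turned to -4.02 points. Seen from H3K4me3, 9.27% and 9.11% of the chromosome 11 peaks overlapped H3K27me3 in IR64 and 8.29% and 7.45% of those of chromosome 12, and in Azucena 19.2% and 19.8% against 14.6% and 13.9%. This order held in 4 of 4 libraries, and 71.2% of pairs of starts had 1 direction throughout.

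In reproducible regions, 34 of 71 H3K27me3 regions on chromosome 11 (47.9%) and 24 of 62 on chromosome 12 (38.7%) overlapped H3K4me3 in IR64, against 45.3% over all 12 chromosomes. In Azucena 57 of 156 (36.5%) and 42 of 132 (31.8%) did so, against 34.3%. These shares lay within 10 percentage points of the background of their cultivar. H3K27me3 regions with H3K4me3 were wider than those without on both starts, with medians of 987.5 against 879 bp (chromosome 11) and 1005 against 762.5 bp (chromosome 12) in IR64, and 1137 against 835 bp and 1102.5 against 990.5 bp in Azucena. This was not particular to the pair. At the starts of chromosomes 1 to 10 the medians were 1084.5 against 842 bp in IR64 and 1261 against 910.5 bp in Azucena. Of the H3K4me3 regions, 9.59% and 7.74% overlapped H3K27me3 in IR64 (12.6% over all chromosomes) and 19.3% and 14.0% in Azucena (18.8%). The bin counts of the 2 marks were weakly related, with rho between -0.18 and 0.08 over 30 bins in the 4 starts.

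The strongest H3K27me3 region of the IR64 chromosome 11 start was also its first called region, at 12131 to 13336, with fold 16.2 and 18.0 in replicates 1 and 2 (17.1 ± 1.29, SD, n = 2). It ranked 14 of 8219 in the genome and overlapped H3K4me3. The next were 952209 to 953202 (7.34 ± 0.844) and 720703 to 721796 (6.80 ± 0.429), both with H3K4me3. In Azucena the leaders of chromosome 11 were 942353 to 943473 (7.71 ± 0.764, with H3K4me3), 584966 to 585907 (6.55 ± 0.461) and 407705 to 408662 (6.36 ± 0.0169, with H3K4me3). The widest H3K27me3 region of chromosome 11 lay at 754037 to 757089 in IR64 (3053 bp) and 748873 to 752437 in Azucena (3565 bp), without H3K4me3 in either.

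On chromosome 12 the strongest IR64 H3K27me3 region, 1485097 to 1485396 (15.9 ± 0.779), was only 300 bp wide and had no H3K4me3. It was followed by 2661669 to 2662488 (fold 11 ± 0.406) and 2600435 to 2601066 (10.8 ± 0.861), both with H3K4me3. Azucena was led by 2534095 to 2535313 (9.79 ± 0.435), 2595167 to 2596487 (8.53 ± 0.705) and 921176 to 922636 (8.52 ± 0.208), all 3 with H3K4me3. The widest regions were 2609861 to 2612719 in IR64 (2859 bp) and 2543450 to 2546507 in Azucena (3058 bp). In each cultivar 3 of these named regions stood at the same spacing. From the start of the first, the second began 9426 bp further in IR64 and 9355 bp in Azucena, and the third 61234 and 61072 bp further. On chromosome 11 the 3 strongest H3K27me3 regions of each cultivar all lay in the first Mb.

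Among H3K4me3 regions the strongest on chromosome 11 were 1053490 to 1054569 in IR64 (7.56 ± 1.33) and 1061488 to 1062430 in Azucena (8.15 ± 0.709), both in the sparse bin at 1000 to 1100 kb. They ranked 101 of 29541 and 56 of 27223 regions. IR64 chromosome 11 was next led by 1480487 to 1481496 (7.18 ± 0.0387) and 306332 to 307825 (6.77 ± 0.312), and Azucena by 2189729 to 2190323 (7.20 ± 1.23) and 2762562 to 2763603 (6.71 ± 0.228). On chromosome 12 the leaders were 2661659 to 2662437 (7.64 ± 1.79), 789928 to 791668 (7.43 ± 0.596) and 1017613 to 1019010 (7.07 ± 0.249) in IR64. In Azucena they were 2534327 to 2535356 (6.94 ± 0.294), 315601 to 316276 (6.79 ± 0.0706) and 1360543 to 1361849 (6.67 ± 0.0220). The first of each cultivar on chromosome 12 overlapped one of the strongest H3K27me3 regions. The widest H3K4me3 regions were 1962963 to 1965678 (2716 bp) and 469756 to 472245 (2490 bp) on chromosome 11 of IR64 and Azucena, and 2109181 to 2112399 (3219 bp) and 322926 to 326333 (3408 bp) on chromosome 12. Only the chromosome 11 ones overlapped H3K27me3. All ± values of folds are SD with n = 2 replicates.

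The values at the 3 Mb boundary were as follows for H3K4me3. The last reproducible H3K4me3 regions inside it began at 2995629 and 2992818 on chromosomes 11 and 12 of IR64 (mean fold 2.57 and 5.72) and at 2993403 and 2983831 in Azucena (4.03 and 3.81). The first outside began at 3001018 and 3017750 in IR64 (3.75 and 3.20) and at 3001217 and 3017943 in Azucena (4.44 and 3.87). For H3K27me3 the last inside began at 2893580 and 2958965 in IR64 (2.63 and 4.75) and at 2955729 and 2994202 in Azucena (4.62 and 4.27). The first outside began at 3015318 and 3092777 in IR64 (4.26 and 5.67) and at 3090259 and 3017786 in Azucena (4.79 and 5.97).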

How the data were processed

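CUT&Tag peak lists of 8 meiocyte libraries were used, 1 list per library with no pooling visible. The other samples of the series were not analysed here. Each deposited row held the authors' fold enrichment (a ratio), its −log10 p-value and −log10 q-value, and where the summit lay. A deposited score column was not used. Per the submitters' processing notes, fastp 0.20.1, Bowtie2 and MACS2 2.1.0 were used, with no roles given. For the control, the duplicate filter and the genome build, the sources used here gave nothing. A deposited table gave the authors' read numbers and the count of peaks per library, which equalled each list's length.

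Groups and replicate numbers came from the sample titles. A peak belonged to a chromosome start if its first base (1-based) lay within 3 Mb. Counts, widths, folds, overlaps, bins of 100 kb, runs and chains were computed per library or from reproducible regions with Python 3.11.15, numpy 2.4.6, pandas 2.3.3 and scipy 1.17.1. Chromosomes were paired within a library, and p-values came from two-sided exact permutation tests, with Benjamini-Hochberg adjustment over 11 comparisons. The 66 pairs of starts are set side by side as a description. Functions were tested on simulated data with planted copies and overlaps. The members and measures were chosen with earlier results of these data known. Regions named are, per cultivar, mark and chromosome, the 3 of highest mean fold and the widest, the densest and sparsest bins, and the longest run; the spacing of 3 chromosome 12 regions was noticed after their values were seen. The fold of a peak depends on its library and was compared only within lists. Alternatives were other peak thresholds, windows, origins, bin widths, gap tolerances, merged peaks and left-out libraries.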

Additional observations from a re-analysis of the deposited data

Results flagged for a closer look

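The relative density of H3K27me3 peaks at the 2 starts, a ratio to the rest of the chromosome, went in opposite directions in the cultivars. Relative to the rest of the chromosome and to the median of the other 10 starts, the mean of chromosomes 11 and 12 was lower in both IR64 libraries (log2 -0.35 and -0.27, mean -0.31 ± 0.0557, SD, n = 2) and higher in both Azucena libraries (0.21 and 0.13, mean 0.17 ± 0.0545, SD, n = 2). The difference of -0.48 had an exact permutation p of 0.333, the smallest that 2 against 2 libraries allow. In mean peaks per Mb, chromosome 11 had 35.8 in its start and 35.3 in the rest in IR64, and 60.7 and 43.6 in Azucena. Chromosome 12 had 27.5 and 27.9 in IR64, and 53.5 and 40.1 in Azucena. The rest of chromosome 11 was the densest of the 12 in IR64, the next being that of chromosome 1, with 32.1. The H3K27me3 lists of IR64 also held fewer peaks in all (12629 and 10134 against 17362 and 17623 in Azucena), and the part of that in the difference was not tested.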

How the results depend on the processing

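The 17 results were recomputed in 149 ways, of which 10 changed the sign and 14 moved an untested value beyond its limit. That limit was the spread over libraries for bin rho and start density, and a set fold change for runs and chains. The other 125 kept direction and the side of the threshold, or stayed within that limit, and some of them still changed in size. H3K27me3 width, -0.12, was -0.029 with a −log10 q of 5 or more and -0.03 in the first 2 Mb. The mark overlap, 4.31 points, was 8.06 with that q and 2.09 with a reciprocal overlap of 50%. The H3K27me3 cultivar difference, 0.19, was 0.065 with that q and 0.11 for peaks enriched 4-fold or more. The H3K4me3 bin rho, 0.21, was 0.052 for such peaks, 0.347 with bins of 200 kb and 0.132 without IR64 replicate 2. H3K27me3 number, 0.28, was 0.129 for such peaks and 0.182 in the first 2 Mb. H3K4me3 number, 0.05, was 0.028 with that q, and H3K4me3 fold, -0.07, was -0.013 for such peaks. H3K4me3 width, -0.06, ranged from -0.094 to -0.023 with each library left out. No test could pass 0.05, so a kept side of the threshold says nothing of stability. On the log2 scale, for peaks enriched 4-fold or more, the chromosome 11 to 12 contrast turned to -0.21 for H3K4me3 number, 0.0068 for H3K4me3 width and 0.081 for H3K27me3 width, and the mark overlap to -4.02 points. In the first 2 Mb it turned to -0.051 for H3K4me3 number and 0.023 for H3K27me3 fold. The cultivar difference for H3K4me3, 0.02, was -0.0055 when a −log10 q of 5 or more was asked, and -0.012 to 0.0505 with each library left out, turning without IR64 replicate 1 or Azucena replicate 2 (-0.0027). H3K27me3 fold ranged from -0.055 to 0.0027 with each library left out, turning without IR64 replicate 1. The H3K27me3 bin rho of 0.25 was 0.051 in the first 2 Mb and 0.47 with bins of 200 kb. Mean H3K4me3 runs were 0.5 with fold at least 4, 76.75 with gaps within 10% or 200 bp and 0 with 4 gaps. H3K27me3 runs were 0.25 with peaks within 500 bp merged and 2.00 with the wider tolerance. The longest chain was 16 in IR64 with gaps within 5% or 300 bp, and in Azucena 8 with gaps within 2% or 200 bp and 8 with up to 2 skipped. The H3K4me3 start density ratio, a mean of 1.93 in IR64 and 1.94 in Azucena, was 1.85 and 1.87 in the first 2 Mb and 1.45 and 1.39 with fold at least 4. The cause of these changes was not tested. Chain and start density settings were chosen after seeing the data.

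Replicate numbers are shared by the groups but nothing says that they pair libraries. Deviations of the same number correlated at -0.07 for H3K4me3 and -0.71 for H3K27me3 over 12 starts. With the replicate block the cultivar difference stayed at 0.02 and 0.19 by construction (exact permutation p = 0.5 each), and with crossed numbers for H3K27me3 (p = 0.5, exact permutation) 0 calls were made, as without.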
